A study of Mus musculus with 9 samples.

Results

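The genes of the constitutive proteasome were followed through 3 populations of mouse CD8+ T cells from a model of graft-versus-host disease (GVHD), the attack of grafted donor lymphocytes on their host. Members were all genes whose symbol is Psma, Psmb, Psmc or Psmd with a number, without the immunoproteasome genes Psmb8, Psmb9 and Psmb10. A gene was measured where a probe set named it alone, and the probe set with the highest mean over the 9 arrays stood for it. This gave 35 of 13152 genes, from 55 member probe sets. Psmb11, a beta subunit of the thymus, was not analysed here. The symbol rule also took in Psmd5, Psmd9 and Psmd10, which are assembly chaperones and not subunits of the finished particle, and Psma8, an alpha subunit of the testis.

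The proteasome is the protease that destroys proteins tagged with ubiquitin. Its 20S core is a stack of rings: alpha subunits form the outer rings, which gate the chamber, and beta subunits form the inner rings, which hold the active sites. The 19S particle caps the core; its base is a ring of ATPases that unfold substrates, and its lid removes ubiquitin. In T cells the proteasome clears short-lived regulators of signalling and of the cell cycle, and interferon can replace its catalytic subunits with those of the immunoproteasome.

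Each population was measured on 3 arrays of Affymetrix probe sets, each from a separate pool of mice, and 600 ng of total RNA went through repeated rounds of amplification. Naive cells were CD44-lo/CD62L-hi CD8+ T cells of normal female C3H.SW mice, 2 mice to a pool. Effector cells, called effector memory cells in the labels, were CD44-hi/CD62L-lo, and postmitotic cells were CD44-lo/CD62L-hi like the naive ones. Both came from 4 pooled male B6/SJL recipients to a preparation, 14 days after lethal irradiation with 10 Gy and a graft of T cell-depleted bone marrow to which CD44-lo/CD62L-hi CD8+ T cells of female C3H.SW donors had been added. The labels give no age, and no gene was altered in any group. Naive cells therefore differed from both other groups in host, irradiation and transplantation as well as in cell state, and these cannot be told apart. The labels name no marker by which donor cells were separated from host cells. Below, the arrays are called N1 to N3 (naive), E1 to E3 (effector) and P1 to P3 (postmitotic), by replicate number.

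Values are the authors' deposited log2 signals, on which a signal of zero reads 6.64. Quantile normalization gives every array the same distribution, so a change in the total RNA of a cell leaves no trace. In these bulk samples fewer cells of a type and less RNA per cell cannot be told apart. E3 and P3 carried Y-linked signal, although the donors were female: the summed signal of 4 Y-linked genes was 971.3 and 3816.1 there, and between 22.5 and 173.2 on the other arrays. Gradients of RNA quality also differed between groups. The 3' minus 5' log2 difference of the actin control was 1.28 to 1.87 in naive, 0.78 to 0.97 in effector and 1.35 to 1.48 in postmitotic samples. That of the transferrin receptor control was 0.38 to 0.54, 1.28 to 1.94 and 1.07 to 1.75. The 5' signal of that control, at 6.82 to 6.85, 5.95 to 6.585 and 6.31 to 6.73, lay around zero signal. The difference of the Gapdh control varied less, at 2.99 to 3.12, 2.84 to 2.88 and 2.89 to 2.96. The part of RNA quality in the results was not tested. The precision is limited by the number of arrays.

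Promoters were looked at because so many members moved together. The 250 bases before a transcription start listed by RefSeq (GRCm38.p6) were found for 28 of the 35 members, and 5 are shown, 5′ to 3′ on the strand of the gene. Psma1 (chr7:114276117-114276366, minus strand) and Psmb3 (chr11:97703184-97703433, plus strand) are members with large effector differences. Psmb5 (chr14:54617996-54618245, minus strand) encodes a catalytic subunit, Psmc1 (chr12:100109952-100110201, plus strand) was called in both recipient populations, and Psmd5 (chr2:34870963-34871212, minus strand) is a member that fell; its listed start lies a few bases inside the outermost end of the gene. Capitals mark matches, on either strand, to TGACNNNGC (the core antioxidant response element of NFE2L1 and NFE2L2), CCGGAA (the ETS core), CCAAT (the box of NF-Y) and GGGCGG (the GC box of SP1).
Psma1: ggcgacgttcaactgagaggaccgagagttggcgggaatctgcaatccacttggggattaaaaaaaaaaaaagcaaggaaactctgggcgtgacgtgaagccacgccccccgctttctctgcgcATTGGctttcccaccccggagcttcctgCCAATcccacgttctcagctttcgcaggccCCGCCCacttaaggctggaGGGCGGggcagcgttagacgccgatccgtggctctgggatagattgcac
Psmb3: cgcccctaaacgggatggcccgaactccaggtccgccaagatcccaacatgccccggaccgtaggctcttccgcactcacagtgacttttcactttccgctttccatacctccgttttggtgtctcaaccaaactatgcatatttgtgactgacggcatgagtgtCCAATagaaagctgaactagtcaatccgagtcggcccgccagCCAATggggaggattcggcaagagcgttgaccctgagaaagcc
Psmb5: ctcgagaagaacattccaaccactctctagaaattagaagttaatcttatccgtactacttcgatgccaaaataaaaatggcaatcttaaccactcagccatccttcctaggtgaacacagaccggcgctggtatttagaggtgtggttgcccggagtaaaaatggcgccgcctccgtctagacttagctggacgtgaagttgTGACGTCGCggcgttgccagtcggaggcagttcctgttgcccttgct
Psmc1: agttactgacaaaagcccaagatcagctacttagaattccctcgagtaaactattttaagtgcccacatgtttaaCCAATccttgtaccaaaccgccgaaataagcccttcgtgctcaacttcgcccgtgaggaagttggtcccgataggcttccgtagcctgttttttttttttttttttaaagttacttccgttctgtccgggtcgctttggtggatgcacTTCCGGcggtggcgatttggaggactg
Psmd5: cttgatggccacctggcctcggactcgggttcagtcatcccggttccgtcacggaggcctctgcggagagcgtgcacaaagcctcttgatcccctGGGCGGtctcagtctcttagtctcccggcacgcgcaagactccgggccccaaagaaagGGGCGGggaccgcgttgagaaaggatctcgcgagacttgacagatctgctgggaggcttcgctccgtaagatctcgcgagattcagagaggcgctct

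Of the marked motifs, the ETS core was the one whose share differed most from that of all genes. CCGGAA stood in 13 of 28 members (46.4%), against 21.3% of the 10046 measured genes with a promoter. CCAAT stood in 11 (39.3%, against 40%), GGGCGG in 17 (60.7%, against 57.1%) and TGACNNNGC in 5 (17.9%, against 13.6%). The 5 genes with TGACNNNGC were Psmb5, Psmb6, Psmc6, Psmd9 and Psmd12, and in Psmb5 the match began 47 bases before the start. A further 11 motifs were searched on both strands. ACCGGAAG, an extended ETS core that contains CCGGAA, stood in 4 members (14.3%, against 3.21%), and AGCGGAAG, another extended form, in 2 (7.14%, against 2.45%). The core of the interferon-stimulated response element stood in Psmb3, Psmd4 and Psmd9 (10.7%, against 3.31%). TGANNNNGC, a looser form that contains every TGACNNNGC, stood in 11 (39.3%, against 40.8%). TATAAA, the TATA box, stood in 3 (10.7%, against 10.8%), CACGTG, the E-box, in 2 (7.14%, against 9.25%) and the palindrome of the respiratory factor NRF1 in Psma2 alone (3.57%, against 1.45%). No member held the extended antioxidant response element or its MAF-type form TGACTCAGC, both contained in TGANNNNGC (0.319% and 0.557% of all), TGACGTCA, the cAMP response element (2.63%), or AAGATGGC, a motif of YY1 (2.14%). A match is a string of letters and was not tested as a binding site.

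In effector cells most of the proteasome rose against naive cells. Of the 35 members, 23 were called higher and 2 lower by limma at an adjusted p under 0.05 over all genes, where 14.5% of all genes were called higher and 16.3% lower (30.8% in either direction). The 3 effector arrays lay above all 3 naive arrays for 27 members (20.4% of all genes) and below them for 2 (24.7% of all genes). The median log2 difference of the members was 0.47, with quartiles of 0.25 and 0.65, and that of all genes was -0.06. The 10 members not called had differences between -0.48 and 0.29. Leaving out 1 array at a time left 18 to 22 members called higher, and requiring an unadjusted p under 0.01 with a fold over 1.5 left 13. Over all 13152 genes these settings called 1485 to 1933 and 1200 higher, against 1905 in the main fit.

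The shift was present on each array of the group. Against the naive mean of each gene, the median member stood 0.43, 0.45 and 0.44 higher on the log2 scale on E1, E2 and E3. On the postmitotic arrays it stood 0.26, 0.40 and 0.21 higher, and on the naive arrays between -0.05 and 0.04. The median of all genes lay within -0.06 and 0.02 on each array. The plot of members by array shows this gene by gene.

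**Figure D1:**
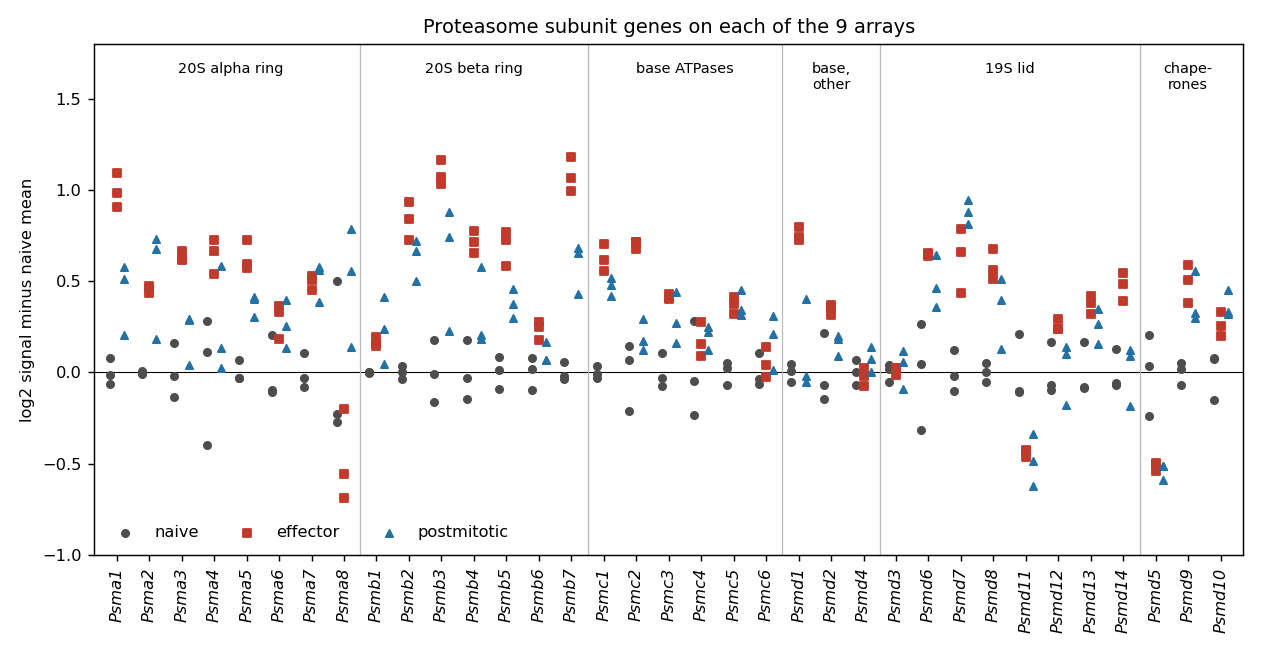
Each of the 35 members on each of the 9 arrays, as log2 signal minus the mean of the 3 naive arrays (vertical axis), ordered by part of the complex; circles are naive, squares effector and triangles postmitotic samples. For most members the squares stand above the circles, by 1.09 for Psmb3 and 1.08 for Psmb7 on average, while for Psmd5 and Psmd11 they stand below.

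The rings of the 20S core had the highest medians of the complex in effector cells. In the alpha ring 6 of 8 genes rose in effector cells with none lower, and the ring's median log2 difference was 0.56. Psma1 read 12.34, 12.48 and 12.39 in naive, 13.39, 13.30 and 13.49 in effector and 12.91, 12.98 and 12.61 in postmitotic samples. All 3 groups were apart, with effector cells highest and postmitotic cells between. The effector difference was 0.99 ± 0.12 (SE, limma; adjusted p = 0.000389; 3 arrays a group, as throughout), a fold of 1.99, and the postmitotic one was 0.43 ± 0.12 (adjusted p = 0.0524). A pair of further Psma1 probe sets near zero signal, with means of 7.05 and 7.40, showed effector differences of 0.02 and -0.02, and the mean of all Psma1 probe sets gave no call (adjusted p = 0.106).

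Psma3, also of the alpha ring, read 13.78, 14.07 and 13.89 in naive, 14.58, 14.54 and 14.53 in effector and 14.21, 14.20 and 13.95 in postmitotic samples. Effector arrays stood above all others, and the postmitotic range overlapped the naive one. The effector difference was 0.64 ± 0.11 (adjusted p = 0.00301). Psma4 read 11.10, 11.78 and 11.61 in naive, 12.22, 12.17 and 12.04 in effector and 11.52, 12.09 and 11.64 in postmitotic samples. Its N1 was low, and its effector difference of 0.64 ± 0.20 (adjusted p = 0.0444) lost the call without any effector array, N1, N3 or P3 (adjusted p from 0.0592 to 0.118). Psma5 and Psma7 rose by 0.63 ± 0.09 and 0.50 ± 0.10 (adjusted p = 0.000849 and 0.00464). A second Psma7 probe set, with a mean of 10.87 against 11.23, showed 0.40 ± 0.16 without a call in a fit of all probe sets (adjusted p = 0.108). Psma2 differed by 0.46 ± 0.14 (adjusted p = 0.0436), with effector arrays at 13.50 to 13.54 and naive arrays at 13.06 to 13.08, and lost the call without any naive or effector array or P1 (adjusted p from 0.0502 to 0.107).

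Psma6 and Psma8 were not called. Psma6 differed by 0.29 ± 0.12 (adjusted p = 0.111), and one of its other probe sets showed 0.51 ± 0.11 with a call in a fit of all probe sets (adjusted p = 0.0109). Psma8 had group means of 6.69 in naive, 6.21 in effector and 7.18 in postmitotic samples, around the 6.64 of zero signal. The other 34 members had means over the 9 arrays between 8.90 and 14.35.

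In the beta ring 5 of 7 genes rose with none lower, and the median was 0.71. Psmb3, a structural beta subunit, read 11.01, 11.35 and 11.17 in naive, 12.21, 12.34 and 12.25 in effector and 11.40, 12.06 and 11.92 in postmitotic samples. Effector cells were highest and the postmitotic samples spread widely between, with P1 near the naive range. Its effector difference was 1.09 ± 0.17 (adjusted p = 0.00188), a fold of 2.13. Psmb2, a further structural subunit, read 11.45, 11.52 and 11.49 in naive, 12.21, 12.42 and 12.33 in effector and 11.99, 12.21 and 12.15 in postmitotic samples. Both recipient populations stood above naive cells, by 0.83 ± 0.10 (adjusted p = 0.000354) in effector and 0.63 ± 0.10 (adjusted p = 0.00665) in postmitotic cells.

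Psmb4, a structural subunit, read 13.32, 13.64 and 13.43 in naive, 14.11, 14.23 and 14.17 in effector and 13.64, 14.04 and 13.66 in postmitotic samples. Effector arrays stood above all others, by 0.71 ± 0.14 over naive cells (adjusted p = 0.00451). A second Psmb4 probe set, nearly as bright (a mean of 13.34 against 13.80), showed 0.23 ± 0.17 without a call in the fit of all probe sets (adjusted p = 0.399), and its effector arrays overlapped the naive ones. Psmb1, a structural subunit, was not called with the probe set used (0.17 ± 0.11, adjusted p = 0.293), although its effector arrays, at 12.12 to 12.17, stood above the naive ones, at 11.97 to 11.98. A dimmer Psmb1 probe set showed 0.91 ± 0.13 with a call in the fit of all probe sets (adjusted p = 0.00118), and the dimmest one -0.39 ± 0.22 (adjusted p = 0.247).

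Of the catalytic subunits, Psmb7 and Psmb5 rose in effector cells and Psmb6 did not pass; whether their differences were unequal was not tested. Psmb7, the trypsin-like beta 2 subunit, read 11.69, 11.68 and 11.77 in naive, 12.89, 12.70 and 12.77 in effector and 12.37, 12.39 and 12.14 in postmitotic samples. The groups were apart, with effector cells highest and postmitotic cells between, and the effector difference was 1.08 ± 0.10 (adjusted p = 0.000103), a fold of 2.11. Psmb5, the chymotrypsin-like beta 5 subunit, read 13.00, 13.17 and 13.10 in naive, 13.67, 13.86 and 13.82 in effector and 13.38, 13.54 and 13.47 in postmitotic samples. It too was highest in effector cells, by 0.69 ± 0.10 (adjusted p = 0.000851), a fold of 1.62. Psmb6, the caspase-like beta 1 subunit, read 12.24, 12.06 and 12.17 in naive, 12.33, 12.41 and 12.43 in effector and 12.23, 12.32 and 12.22 in postmitotic samples. Its effector arrays stood just above the naive ones, but the difference of 0.23 ± 0.09 did not pass (adjusted p = 0.0789).

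The immunoproteasome subunits can take these positions. In naive cells Psmb8 and Psmb9 already had means of 13.58 and 13.32, and Psmb10 read 12.82 to 13.03. Against naive cells 2 of 3 were higher in effector (14.5% of all genes) and 3 of 3 in postmitotic cells (6.13%). The part of interferon was not tested. Psmb9, of the beta 1 position, was higher by 0.68 ± 0.09 in effector cells (adjusted p = 0.000668) and by 0.45 ± 0.09 in postmitotic cells (adjusted p = 0.0179). Psmb8, of the beta 5 position, was higher by 0.44 ± 0.12 (adjusted p = 0.0219) and 0.53 ± 0.12 (adjusted p = 0.025). Psmb10, of the beta 2 position, read 13.03, 12.82 and 13.00 in naive, 13.13, 13.14 and 13.15 in effector and 13.57, 13.75 and 13.65 in postmitotic samples. It was highest in postmitotic cells, by 0.71 ± 0.09 over naive cells (adjusted p = 0.0037) and by 0.52 ± 0.09 over effector cells (adjusted p = 0.00462), while its effector difference of 0.19 ± 0.09 did not pass (adjusted p = 0.178). Its constitutive counterpart Psmb7 had a postmitotic minus effector difference of -0.49 ± 0.10 (adjusted p = 0.0084). The effector call of Psmb8 was lost without N1, E2 or E3 (adjusted p from 0.0598 to 0.0828). The postmitotic call of Psmb8 was lost without any naive array, E3 or P2 (0.0507 to 0.0685), and that of Psmb9 without N3 or P2 (0.0551 to 0.0637).

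**Figure D2:**
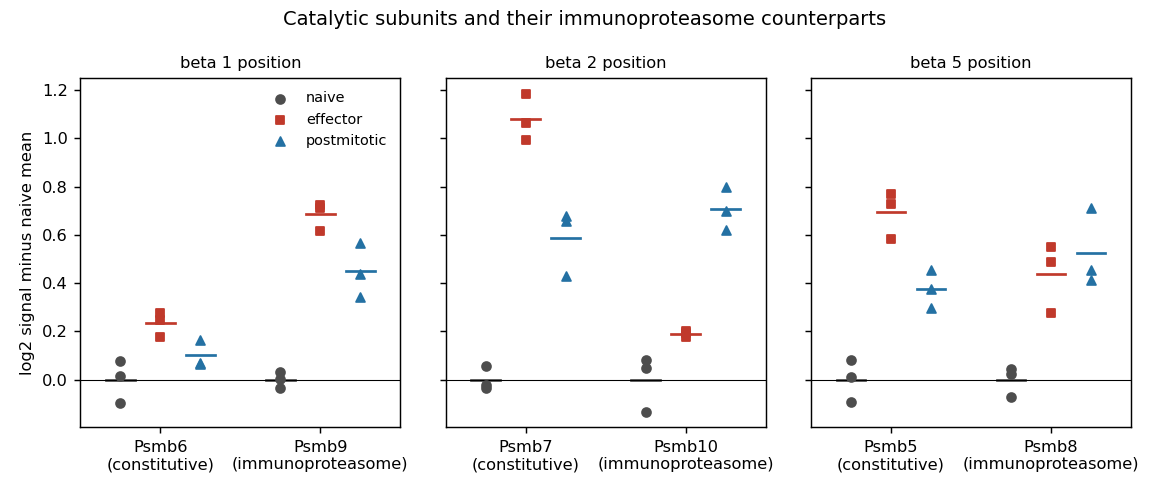
Log2 signal minus the naive mean (vertical axis) for the 3 constitutive catalytic subunits and the immunoproteasome subunits of the same positions; points are arrays and bars group means, 3 arrays a group. Psmb7 is highest in effector cells at 1.08, whereas Psmb10 is highest in postmitotic cells at 0.71.

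In the 19S particle 11 of 17 subunit genes rose in effector cells and 1 was called lower, and the median was 0.37, against 11 of 15 and 0.64 in the core. The difference between core and cap was not tested. In the ring of base ATPases 4 of 6 genes rose, with a median of 0.39. Psmc2 read 14.19, 13.84 and 14.12 in naive, 14.76, 14.76 and 14.73 in effector and 14.22, 14.17 and 14.34 in postmitotic samples. The effector arrays were close together and above all others, and the postmitotic samples overlapped the naive ones. The effector difference was 0.70 ± 0.11 (adjusted p = 0.00181), and another Psmc2 probe set gave 0.54 ± 0.09. Psmc1, an ATPase that helps to open the gate of the core, rose by 0.63 ± 0.08 (adjusted p = 0.00068), Psmc3 by 0.41 ± 0.10 (0.0148) and Psmc5 by 0.37 ± 0.09 (0.0116). The call of Psmc3 was lost without E3 (0.051), and that of Psmc5 without E3 and P3 together (0.055). Psmc4 and Psmc6 were not called, at 0.17 ± 0.14 and 0.05 ± 0.11, and their effector arrays overlapped the naive ones. A dimmer Psmc4 probe set showed 0.31 ± 0.09 with a call in the fit of all probe sets (adjusted p = 0.0435).

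Among base subunits without ATPase activity, 2 of 3 rose. Psmd1, the large scaffold of the base, read 11.23, 11.33 and 11.29 in naive, 12.01, 12.02 and 12.08 in effector and 11.26, 11.23 and 11.69 in postmitotic samples. The effector arrays were tightly grouped and above all others, and P3 stood apart from its group. The effector difference was 0.76 ± 0.13 (adjusted p = 0.00259). Psmd2, the docking scaffold for ubiquitin shuttles, differed by 0.35 ± 0.11 (adjusted p = 0.0448), and the call was lost without any single array but N2 (adjusted p from 0.0553 to 0.13). Psmd4, a ubiquitin receptor, did not pass, at -0.02 ± 0.09. The dimmest Psmd4 probe set showed -1.16 ± 0.30 with a call in the fit of all probe sets (adjusted p = 0.0233).

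In the lid 5 of 8 genes rose and 1 was called lower, with a median of 0.42. Psmd6 read 10.64, 11.22 and 11.00 in naive, 11.59, 11.61 and 11.61 in effector and 11.42, 11.60 and 11.31 in postmitotic samples. N1 was low, and both recipient populations stood above the naive range. The effector difference was 0.65 ± 0.15 (adjusted p = 0.0122), a call lost without E3 and P3 together (0.0553). A second Psmd6 probe set showed 0.37 ± 0.15 without a call in the fit of all probe sets (adjusted p = 0.107). Psmd14, the deubiquitinase of the lid, read 12.60, 12.80 and 12.61 in naive, 13.15, 13.22 and 13.06 in effector and 12.79, 12.76 and 12.48 in postmitotic samples. Effector arrays stood above both other groups, over naive cells by 0.47 ± 0.11 (adjusted p = 0.0142), with the call lost without N3 or E2 (0.0508 to 0.0557). Psmd7, its partner in the lid, read 9.22, 9.14 and 9.37 in naive, 9.68, 10.04 and 9.90 in effector and 10.19, 10.06 and 10.12 in postmitotic samples. It was the only lid gene with all postmitotic arrays above all effector arrays. Its effector difference was 0.63 ± 0.12 (adjusted p = 0.00395), and with the mean of all Psmd7 probe sets the call was lost (adjusted p = 0.42).

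Psmd8 rose by 0.58 ± 0.12 (adjusted p = 0.0056) and Psmd13 by 0.37 ± 0.10 (0.0261); the call of Psmd13 was lost without N1, N3 or any effector array (0.0531 to 0.0876). Psmd3 and Psmd12 were not called, at 0.01 ± 0.09 and 0.26 ± 0.12. Psmd11, the clamp between lid and core, is uncertain, because its probe sets were called in opposite directions. The brightest one, which stood for the gene, read 10.47, 10.78 and 10.46 in naive, 10.14, 10.11 and 10.15 in effector and 10.09, 10.24 and 9.95 in postmitotic samples. On it both recipient populations stood below naive cells, by an effector difference of -0.44 ± 0.12 (adjusted p = 0.024). That call was lost without N2 or any effector array (0.0591 to 0.0743). Another Psmd11 probe set showed 0.34 ± 0.10 (adjusted p = 0.0326 in the fit of all probe sets, where the one used had 0.0316), and the third 0.03 ± 0.20. The probe sets were not mapped to exons here.

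The base assembly chaperones split. Psmd5, which holds early ATPase intermediates, read 11.21, 10.76 and 11.04 in naive, 10.46, 10.51 and 10.50 in effector and 10.49, 10.41 and 10.49 in postmitotic samples. Both recipient populations lay below the naive range and close to each other. The effector difference was -0.51 ± 0.12 (adjusted p = 0.0118), a fold of 1.43 down, and it lost the call without E3 and P3 together (adjusted p = 0.0577). Psmd9 rose by 0.49 ± 0.11 (adjusted p = 0.00816), a call that its dimmer probe set did not carry (-0.25 ± 0.41). Psmd10, known as gankyrin, differed by 0.26 ± 0.10 (adjusted p = 0.0842), with no overlap between the groups.

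**Figure D3:**
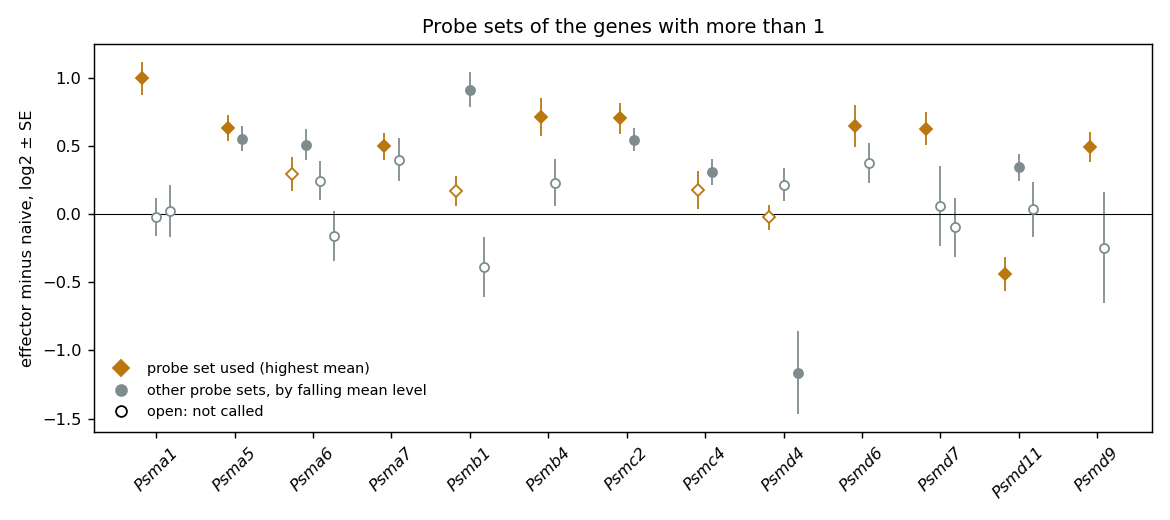
Effector minus naive log2 difference with its SE (vertical axis) for every probe set of the 13 members with more than 1; diamonds are the probe sets used, circles the others, and open symbols were not called in the fit of all probe sets. Psmd11 has calls on both sides of 0, at -0.44 and 0.34.

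Markers of other cell types had calls in effector against naive cells, where 14.5% of all genes were called higher and 16.3% lower. Of 15 myeloid markers, Cd68, Ly86 and Cebpb were higher and Cd14 lower in effector cells; 13 of the 15 had a positive estimate, with a median of 0.47. Csf1r, Tyrobp and Fcer1g had 0.66, 1.02 and 1.28 and were not called. The summed signal of the 15 was 3110.8 to 4091.2 in naive, 4241.3 to 8952.9 in effector and 2195.4 to 4590.8 in postmitotic samples, and of the list Cd14 alone was at or below zero signal on all effector arrays. Bright genes weigh most in such a sum. Csf1r read 10.86 to 11.39, 10.85 to 12.40 and 8.97 to 11.02 in these groups on the log2 scale. Of 10 B and plasma cell markers 2 were higher (Cd22, Jchain) and 1 lower (Cd79b), with summed signals of 866.4 to 919.0, 953.4 to 1103.2 and 717.3 to 1063.3. Of 8 NK cell markers 4 were higher, all of which CD8+ T cells also make (Eomes, Cd7, Klrk1, Nkg7), with summed signals of 25674.6 to 26970.0, 69511.1 to 71085.0 and 36249.5 to 40268.0 and Klrb1c at or below zero signal throughout. Of 5 CD4 and regulatory T cell markers 1 was higher (Foxp3), with sums of 376.0 to 514.2, 518.2 to 546.4 and 320.0 to 457.1. Of 10 erythroid markers none was higher and 1 was lower (Hbb-b1), with sums of 798.8 to 1336.0, 877.2 to 1162.3 and 836.8 to 1475.2. Hbb-b1 was at or below zero signal on every array of each group. Of 8 CD8 T cell markers 3 were higher (Cd28, Cd3g, Lck), with sums of 72957.0 to 73735.8, 80207.8 to 81446.7 and 68575.3 to 72033.4; Cd8a had no probe set of its own. The part of these cells in the proteasome values was not tested. Without both arrays with Y-linked signal, 18 members were higher in effector cells. Of all 13152 genes 1461 were then called higher, against 1905 with all arrays, and the median difference of the members was 0.48.

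In postmitotic cells a smaller set of members rose. Against naive cells 10 of 35 members were called higher and 2 lower, where 6.13% of all genes were called higher and 5.70% lower (11.8% in either direction). The 3 postmitotic arrays lay above all naive arrays for 18 members (14.3% of all genes) and below for 2 (14.9% of all genes). The median difference was 0.29, with quartiles of 0.17 and 0.45, against -0.01 for all genes, and each of the 23 members not called had a positive estimate. This comparison used the same naive arrays as the effector comparison, so the 2 are not independent. The count of calls was sensitive to the fit: 3 members were higher with only the 6 arrays compared, 16 with a trended prior, and 4 to 9 with 1 array left out. It was 4 without N3, 5 without E1, E3 or P2, and 6 without N1, N2 or E2. The count over all 13152 genes moved as well. It was 806 in the main fit, 337 with the 6 arrays, 1195 with a trended prior and 476 to 801 with 1 array left out.

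**Figure D4:**
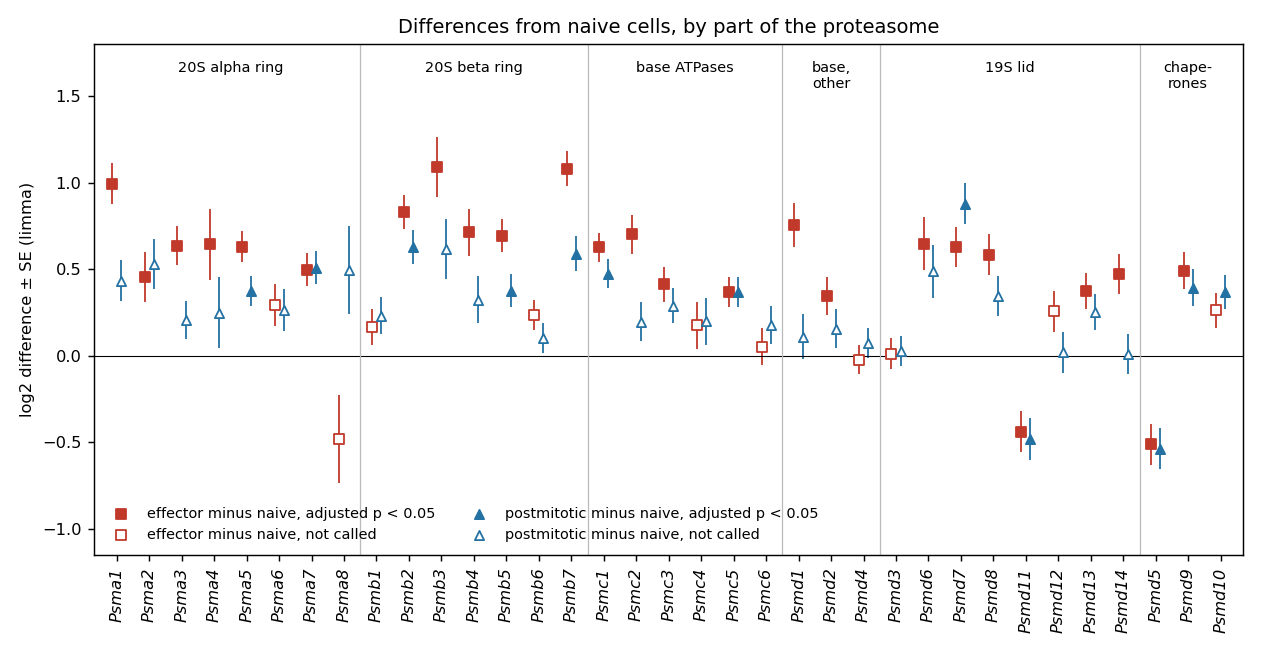
Log2 difference from naive cells with its SE (vertical axis) for each member, squares for effector and triangles for postmitotic cells, filled where the adjusted p was under 0.05. In the core the squares mostly stand above the triangles, as for Psmb7 at 1.08 and 0.59, while Psmd7 is higher in postmitotic cells at 0.88.

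Calls were spread over the complex. The alpha ring had 2 of 8 members higher, the beta ring 3 of 7, the ATPases 2 of 6, the other base subunits 0 of 3 and the lid 1 of 8, with Psmd11 lower. The base chaperones had 2 of 3 higher and Psmd5 lower. Psmd7, whose arrays are given above, had the largest postmitotic difference, 0.88 ± 0.12 (adjusted p = 0.0035), a fold of 1.84. With the mean of all Psmd7 probe sets it was not called (adjusted p = 0.158). Psmb7 followed in the core with 0.59 ± 0.10 (adjusted p = 0.0101), after Psmb2, and Psmc1 had 0.47 ± 0.08 (adjusted p = 0.0108). These 4 genes, Psmb2, Psmb7, Psmc1 and Psmd7, kept their call whichever single array was left out, but without both P3 and E3 Psmb2 and Psmc1 lost it (0.0577 and 0.065). Psmb3, at 0.62 ± 0.17, was not called (adjusted p = 0.0575).

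The other 8 calls lay close to the threshold: each lost its call without at least 1 single array, while its estimate kept its direction, from 0.29 to 0.57 for those higher and from -0.66 to -0.38 for those lower. Psma7 rose by 0.51 ± 0.10 (adjusted p = 0.0137) and lost the call without N3 (0.0507). Psma5, at 0.37 ± 0.09 (0.0306), lost it without N2 or N3, E1 or E3, or P1 or P2 (0.0528 to 0.0955). Psmc5, at 0.37 ± 0.09 (0.0293), lost it without any array but P3 (0.0527 to 0.0815). Psmb5 (0.38 ± 0.10, 0.0414), Psmd9 (0.39 ± 0.11, 0.049) and Psmd10 (0.37 ± 0.10, 0.0494) lost it without any 1 of the 9 arrays, at 0.057 to 0.116, 0.0625 to 0.127 and 0.0691 to 0.133. Psmd5, at -0.54 ± 0.12 (0.0249), lost it without N3, E3 or any postmitotic array (0.0516 to 0.0784). Psmd11, at -0.48 ± 0.12 (0.0379), lost it without N2 or N3, any effector array, or P1 or P3 (0.0639 to 0.094). The other probe sets of Psmd11 showed 0.13 and -0.02.

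Other core genes and scaffolds had postmitotic differences that did not pass. Psma2 had 0.53 ± 0.14 and missed the threshold closely (adjusted p = 0.0501); its P3, at 13.25, was well below the other postmitotic arrays, at 13.75 and 13.80. Psmd1 had 0.11 ± 0.13, Psmd14 0.01 ± 0.11 and Psmc2 0.20 ± 0.11, none of which passed. Without P3 the estimate for Psmd1 was -0.04. Psmb6 had 0.10 ± 0.09 and Psma3 0.21 ± 0.11. Among the cell type markers, postmitotic cells had Cebpb of the 15 myeloid markers, Eomes, Cd7, Klrk1 and Nkg7 of the 8 NK cell markers and Gata1 of the 10 erythroid markers higher than naive cells. The erythroid marker Car2 and the T cell marker Cd28 were lower, and no marker of B cells or of CD4 T cells was called. Among all genes 6.13% were higher and 5.70% lower. The part of these cells in the proteasome values was not tested.

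The recipient populations were also set against each other. Against effector cells 7 of 35 members were lower in postmitotic cells and 1 was higher, where 11.8% of all genes were lower and 13.2% higher (24.9% in either direction). All postmitotic arrays lay below all effector arrays for 16 members (19.4% of all genes) and above them for 2 (22.9% of all genes). The median difference of the members was -0.13, with quartiles of -0.35 and 0.01, against 0.04 for all genes. In 22 of 35 members the group means ran from naive through postmitotic to effector, an order held by 18% of all genes. Markers of other cells also differed here. Postmitotic cells had 4 of 15 myeloid markers lower (Csf1r, Cd68, Ly86 and Adgre1), 3 of 8 NK cell markers (Eomes, Cd7 and Nkg7), Foxp3, Jchain and Car2. Cd79b and Gata1 were higher, as was Uty of the 4 Y-linked genes. Uty read 7.22, 7.25 and 7.585 in postmitotic, 6.82 to 7.05 in effector and 7.11 to 7.21 in the female naive samples. Of the 8 CD8 T cell markers Cd3g, Cd2 and Cd28 were lower and Cd8b1 higher. Their part in the proteasome values was not tested.

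The 7 lower members came from the core and the cap. From the core they were Psma1 (-0.56 ± 0.12, adjusted p = 0.00934), Psma3 (-0.43 ± 0.11, 0.0241), Psmb7 (-0.49 ± 0.10, 0.0084) and Psmb5 (-0.32 ± 0.10, 0.0438). From the cap they were Psmd1 (-0.65 ± 0.13, 0.00705), Psmc2 (-0.50 ± 0.11, 0.0114) and Psmd14 (-0.46 ± 0.11, 0.019). Psma1, Psmb7, Psmc2 and Psmd1 kept the call whichever array was left out, although with the mean of all probe sets Psma1 lost it (adjusted p = 0.398). Psma3 lost it without any effector array or P3 (0.0638 to 0.0766), Psmd14 without E1 or E2 (0.0593 to 0.0712), and Psmb5 without N3 or any effector or postmitotic array (0.051 to 0.142). Without both arrays with Y-linked signal, Psmd1 alone of the 7 was still called. Left out singly, E1 or E2 left 4 members lower. Over all genes 1546 were called lower in the main fit. There were 964 without both arrays with Y-linked signal, 1246 without E1 and 1234 without E2.

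The 1 higher member was Psma8, the testis subunit, which read 6.46, 7.19 and 6.42 in naive, 6.49, 6.14 and 6.0 in effector and 7.25, 6.83 and 7.48 in postmitotic samples. The effector arrays were below zero signal and the postmitotic arrays just above it, so the fold is at least 1.45 against zero signal. The limma call rests on the values as deposited, with a difference of 0.97 ± 0.25 (adjusted p = 0.0239). It was lost without E2 or E3 or P1 or P3 (0.0668 to 0.0859). It was also lost when low values were raised to a floor and when signals were given an offset of 16.

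**Figure D5:**
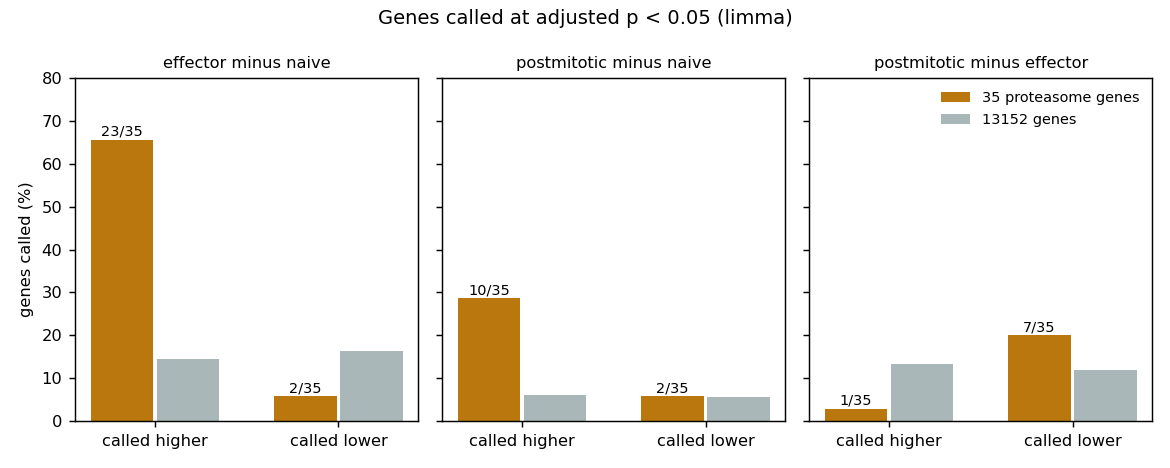
Percentage of genes called (vertical axis, from 0) in each comparison, for the 35 members and for all 13152 genes, with the member counts above the bars. Higher calls in effector cells cover 23 of 35 members against 14.5% of all genes, and between the recipient populations 7 members are lower against 11.8%.

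Genes that work with the proteasome had calls in both directions. Of 45 measured genes of the pathway outside the members, 10 were higher and 7 lower in effector cells, with a median of 0.07, where 14.5% and 16.3% of all genes were. In postmitotic cells 8 were higher and 4 lower, with a median of 0.11, where 6.13% and 5.70% of all genes were. Against effector cells, postmitotic cells had 8 higher and 7 lower, where 13.2% and 11.8% of all genes were.

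The chaperones that assemble the core went separate ways. Pomp, which matures the half-core and leaves when it closes, read 11.58, 11.58 and 11.50 in naive, 12.24, 12.32 and 12.28 in effector and 11.86, 12.00 and 11.81 in postmitotic samples. It was ordered like most core genes, with effector cells 0.73 ± 0.09 above naive cells (adjusted p = 0.00043). Its postmitotic difference of 0.34 ± 0.09 (adjusted p = 0.0467) lost the call without any 1 array (0.0549 to 0.136). Psmg1, of an assembly complex of the alpha ring, was highest in postmitotic cells, by 0.56 ± 0.11 over naive (0.0153) and 0.78 ± 0.11 over effector cells (0.00104). Psmg4, of another such complex, differed by -0.40 ± 0.11 in effector cells (0.0264, lost without any naive or effector array at 0.0557 to 0.0825). It was 0.69 ± 0.11 higher in postmitotic than effector cells (0.00246). Psmg2 and Psmg3 were not called in any comparison.

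Among the caps that replace or inhibit the 19S particle, the interferon-induced activators Psme1 and Psme2 were higher in postmitotic cells, by 0.39 ± 0.09 (adjusted p = 0.0297) and 0.45 ± 0.10 (0.0242). Psme1 was also 0.46 ± 0.09 above effector cells (0.00665). The nuclear activator Psme3 was higher in effector cells by 0.30 ± 0.08 (0.0185), and Psme4 and the inhibitor Psmf1 were not called. Single arrays ended several of these calls. For Psme1 they were N2 or N3, E2 or E3 and P1 or P2 (0.0555 to 0.0865). For Psme2 they were N1 or N3, E3 and P1 or P2 (0.0517 to 0.0691), and for Psme3 N3 or any effector array (0.051 to 0.0719). For Psme3 the mean of all probe sets gave 0.19 (adjusted p = 0.251) and the probe set of largest spread 0.02 (0.954).

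Of 13 further 19S subunits and associated factors, 2 were higher and 2 lower in effector cells, close to the 14.5% and 16.3% of all genes. The higher ones were Uchl5, a deubiquitinase of the cap (0.46 ± 0.10, adjusted p = 0.0106), and Sem1, the smallest lid subunit (0.30 ± 0.09, 0.0309; lost without N2 or N3 or any effector array, 0.0762 to 0.0984). The lower ones were the ubiquitin shuttles Ubqln1 (-0.66 ± 0.14, 0.00728) and Ubqln2 (-0.83 ± 0.16, 0.0054). For Ubqln1, Ubqln2 and Uchl5 the mean of all probe sets ended the call. In postmitotic cells Ubqln2 (-0.72 ± 0.16, 0.0283) and Ubqln4 (-0.34 ± 0.09, 0.0398) were lower. Ubqln2 lost that call without N1 or N3, E2 or E3, or P2 or P3 (0.0512 to 0.0646), and Ubqln4 without any array but N2 (0.0678 to 0.117). Against effector cells Txnl1 (-0.64 ± 0.16, 0.0181) and the ligase Ube3c (-0.40 ± 0.12, 0.044) were lower in postmitotic cells. Txnl1 lost the call without E1 or E3 (0.0521 to 0.0665), and Ube3c without N3 or any effector or postmitotic array (0.0548 to 0.123). Of 8 cofactors of the p97 segregase, which hands extracted proteins to the proteasome, Ufd1 was higher in both recipient populations (0.72 ± 0.11, 0.00128, and 0.58 ± 0.11, 0.0132). Derl2, a degradation factor of the endoplasmic reticulum, was higher in effector cells (0.49 ± 0.08, 0.00154). Against effector cells, Derl2 (-0.36 ± 0.08, 0.00828) and Nploc4 (-0.45 ± 0.09, 0.0081) were lower in postmitotic cells. With the mean of all probe sets both calls of Derl2 were lost (0.782 and 0.447), as were the postmitotic call of Ufd1 (0.0742), that of Ubqln4 (0.305) and that of Ube3c against effector cells (0.225). Uba1, the enzyme that activates ubiquitin, was not called in any comparison.

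Nfe2l1 and Nfe2l2, transcription factors that drive proteasome genes, were lower in effector than in naive cells. Nfe2l1, which restores proteasome genes when the proteasome is inhibited, read 10.36, 10.01 and 10.20 in naive, 9.47, 9.69 and 9.57 in effector and 9.66, 9.82 and 9.73 in postmitotic samples. Naive cells were highest, with an effector difference of -0.61 ± 0.12 (adjusted p = 0.0042) and a postmitotic one of -0.45 ± 0.12 (adjusted p = 0.0414). The latter lost the call without any array but N2 (0.0604 to 0.109). Nfe2l2, the related factor of the oxidative stress response, read 11.01, 11.41 and 11.34 in naive, 9.86, 10.02 and 10.00 in effector and 10.98, 10.86 and 11.23 in postmitotic samples. Effector arrays were below both others, with a difference of -1.29 ± 0.14 against naive cells (adjusted p = 0.000231), and postmitotic cells were 1.06 ± 0.14 above effector cells (adjusted p = 0.000861).

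Their partners and opponents moved too. Bach1, a repressor at the same DNA elements, fell in both recipient populations (-1.22 ± 0.11, adjusted p = 6.66e-05, and -0.63 ± 0.11, 0.00933), the latter lost with the mean of all probe sets (0.137). Of the small MAF partners, Mafg was higher in effector cells (0.77 ± 0.10, 0.000752) and Mafk lower (-0.73 ± 0.10, 0.000713). Ngly1, the enzyme that activates the NFE2L1 protein by removing sugars, was higher in effector cells (0.36 ± 0.11, 0.0327), a call lost without N1 or N3 or E2 or E3 (0.0508 to 0.109). In all, 2 of these 9 regulators rose and 4 fell in effector cells, where 14.5% of all genes rose and 16.3% fell. In postmitotic cells none rose and 2 fell, where 6.13% and 5.70% of all genes did. Against effector cells, postmitotic cells had Nfe2l2, Bach1, Mafk and Maff higher and Mafg and Ngly1 lower. The call of Mafg was lost without E1 or E3 (0.0573 to 0.061). The effector arrays of Maff, at 5.72 to 6.60, lay below zero signal. Its call was lost without E3, P1 or P2 (0.0697 to 0.0831), and when low values were raised to a floor. The arrays measure mRNA only.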

How the data were processed

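The values used were the deposited log2 signals of 9 Affymetrix mouse arrays, 3 per group. The authors made them, per the deposited readme, as trimmed means per probe set, quantile-normalized to the array of naive replicate 2 and logged with an offset of 50 inside and outside a maximum, so that folds of dim genes are understated. Software and version are not given in the sources used here. Symbols came from the deposited annotation, updated through RefSeq (GRCm38.p6). Among 22690 probe sets, 21259 named 1 gene, giving 13152 genes; 5 member probe sets that named several genes were left out.

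Groups were compared with limma 3.58.1 (R 4.3.3; lmFit, eBayes, a mean per group, 9 arrays, 6 residual and 2.14 prior degrees of freedom), adjusted by Benjamini-Hochberg over 13152 genes and called under 0.05. The adjusted p-values of single probe sets come from the same fit over all non-control probe sets. Members, pathway and marker lists were chosen with earlier results of these data known. Values on every array were to be given for the 10 members with the largest effector difference, the 5 with the largest postmitotic difference, the catalytic subunits and members that fell. In all, 20 alternative settings were run. Replicate numbers were not taken to pair the samples. The arrays with Y-linked signal, E3 and P3, carry the same number. Deviations of same-numbered arrays correlated at 0.0146 to 0.0615, and those of arrays with different numbers at -0.0516 to 0.0184. Whether same-numbered samples shared a preparation was not tested, and a fit with the number as a block is given below.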

Additional observations from a re-analysis of the deposited data

How the results depend on the processing

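The direction of the median member held under every alternative run in each comparison. In effector against naive cells the number of members called higher was 18 to 22 with 1 array left out and 13 at an unadjusted p under 0.01 with a fold over 1.5. The number lower was 1 or 2 with 1 array left out, 1 with the mean of all probe sets, 0 without both arrays with Y-linked signal and 0 at that unadjusted threshold. With the mean of all probe sets the median difference was 0.37. Over all genes 1905 were higher in the main fit and 1485 to 1933 with 1 array left out. There were 1461 without both Y-linked arrays and 1200 at the unadjusted threshold. In postmitotic against naive cells 4 to 9 members were higher with 1 array left out, 6 with the probe set of largest spread, 3 with only the 6 arrays compared, 16 with a trended and robust prior, 16 with dim genes left out, 4 without both Y-linked arrays and 3 at the unadjusted threshold. The number lower was 0 to 2 with 1 array left out, 1 with the mean of all probe sets, 1 with the largest spread, 0 with 6 arrays, 0 without both Y-linked arrays and 0 at the unadjusted threshold. Over all genes 806 were higher in the main fit, 476 to 801 with 1 array left out and 337 with 6 arrays. There were 1195 with a trended and robust prior, 296 without both Y-linked arrays and 456 at the unadjusted threshold. In postmitotic against effector cells 0 or 1 members were higher with 1 array left out, and 0 with a floor at the 40th percentile, with dim genes left out, with an offset of 16, without both Y-linked arrays and at the unadjusted threshold. The number lower was 4 to 7 with 1 array left out, 1 without both Y-linked arrays and 1 at the unadjusted threshold, but 10 with a trended and robust prior, 10 with dim genes left out and 9 with a floor at the 40th percentile. Over all genes 1546 were lower in the main fit, 1178 to 1628 with 1 array left out and 964 without both Y-linked arrays. There were 989 at the unadjusted threshold, 1827 with a trended and robust prior and 1656 with the floor. With the replicate number as a block, 21 members were higher and 2 lower in effector, 7 higher and 1 lower in postmitotic cells against naive cells, and 0 higher and 9 lower between the recipient populations; not every array correlated best with its own number. Another choice of probe set turned the sign of some differences, called ones included. With the probe set of largest spread Psmd9, called higher in both populations, had -0.25 in effector and -0.17 in postmitotic cells, and Psmd4, not called, had -0.32 in postmitotic cells, against naive cells. Without both Y-linked arrays the postmitotic differences of Psmd1 and Psmd3 were -0.0375 and -0.0157. Ubqln2, no member and called lower in postmitotic cells, had 0.0591 with the mean of probe sets and 0.57 with the largest spread. With 1 array left out, effector differences ranged from -0.0567 to 0.0099 for Psmd4 and from -0.0165 to 0.0306 for Psmd3. Postmitotic ones ranged from -0.0375 to 0.191 for Psmd1, -0.0157 to 0.0866 for Psmd3, -0.0399 to 0.12 for Psmd12 and -0.0473 to 0.108 for Psmd14, and that of Psmb8 against effector cells from -0.0034 to 0.145. Causes were not tested, beyond the fewer samples or genes that some settings hold.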

Other observations

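The spread among replicates differed between groups. The median SD of a member over 3 arrays was 0.0965 in naive, 0.0608 in effector and 0.137 in postmitotic samples on the log2 scale. Postmitotic replicate 2 had the highest postmitotic level of the median member, 0.40 above the naive mean, and replicate 3 the lowest, 0.21. Postmitotic replicate 3 also had the strongest Y-linked signal of all arrays; for Psmd1 it read 11.69 where the other postmitotic arrays read 11.26 and 11.23, and for Psma1 12.61 where they read 12.91 and 12.98.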
